A study of Mus musculus with 44 samples.

Results

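The data cover 10 collagen genes of mouse mammary fibroblasts that do not encode fibril-forming chains. They are the short-chain collagens (Col8a1, Col8a2, Col10a1), the collagens with interrupted triple helices that sit on fibrils (FACIT collagens; Col12a1, Col14a1, Col16a1) and chains of the beaded-filament collagen type VI (Col6a1, Col6a2, Col6a3, Col6a6). Members were chosen by gene symbol with earlier results of these data known, and all 10 were found among the 55486 genes of the deposited count table. The fibroblasts were sorted as EpCAM-, CD49f-, CD31- and CD45- cells from female En1-Cre;mTmG mice that carried transplanted mammary tissue. Donor tissue was control tissue, WB1P tissue (WapCre;Brca1F/F;Trp53F/F, in which Cre driven by the Wap promoter of milk-producing epithelium removes the tumor suppressors Brca1 and Trp53) or WB1P-Myc tissue, which also carries the Col1a1invCAG-Myc-IRES-Luc allele. Control donors had the Cdh1F/F;PtenF/F alleles without WapCre. Fibroblasts next to control tissue are called normal fibroblasts (NFs) and those of the 2 tumor models cancer-associated fibroblasts (CAFs). Fibroblast counts were summed to one value per mouse and class of CD26, the surface peptidase encoded by Dpp4, which gave 3 CD26- and 3 CD26+ sums of NFs, 5 and 4 of WB1P CAFs, and 5 and 5 of WB1P-Myc CAFs. GFP marks cells whose ancestors expressed En1, and libraries of GFP+ and GFP- cells were added within each CD26 class. Tumors were taken at end stage, but 2 WB1P-Myc tumors carry the mark 8x8 in their labels. The host fat pad was not cleared, and the labels of each control give a pair of numbers, so that a control may hold more than 1 animal; each was counted as 1 mouse here. Mice are numbered 1 to 3 (control), 4 to 8 (WB1P) and 9 to 13 (WB1P-Myc, of which 12 and 13 are marked 8x8).

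Collagen chains fold in threes into a triple helix. Type VIII and type X collagens have short helices that join into sheet-like networks: type VIII is known from vessel walls and the basement membrane of the cornea, and type X from the hypertrophic cartilage of growth plates. FACIT collagens bind to the surface of type I fibrils. Collagen XII is typical of tissue under load and of wounds, collagen XIV of the mature dermis and tendon, and collagen XVI of fibril and microfibril borders. In type VI collagen an alpha1, an alpha2 and an alpha3 chain form a monomer that is assembled into beaded filaments around cells, and the alpha6 chain encoded by Col6a6 can stand in for alpha3.

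The 3 short-chain genes gave the widest range of levels between NFs and CAFs, so the 250 bases before their annotated starts are shown, each 5′ to 3′ on the strand of the gene. The sequences are RefSeq's, on GRCm38.p6. Capitals mark a TATAAA box in Col10a1 and the letters TGTGGT, a Runx-type motif, in Col8a1.
Col8a1, chr16:57754738-57754987, minus strand: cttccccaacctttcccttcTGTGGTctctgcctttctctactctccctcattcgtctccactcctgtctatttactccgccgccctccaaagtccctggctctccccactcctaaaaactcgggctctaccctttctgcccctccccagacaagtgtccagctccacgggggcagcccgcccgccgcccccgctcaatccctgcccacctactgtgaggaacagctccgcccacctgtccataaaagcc
Col8a2, chr4:126286544-126286793, plus strand: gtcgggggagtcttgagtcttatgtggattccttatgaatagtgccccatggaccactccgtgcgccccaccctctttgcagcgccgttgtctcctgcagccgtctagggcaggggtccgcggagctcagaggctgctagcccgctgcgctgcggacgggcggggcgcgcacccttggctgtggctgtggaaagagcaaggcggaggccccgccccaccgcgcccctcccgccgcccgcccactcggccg
Col10a1, chr10:34389731-34389980, plus strand: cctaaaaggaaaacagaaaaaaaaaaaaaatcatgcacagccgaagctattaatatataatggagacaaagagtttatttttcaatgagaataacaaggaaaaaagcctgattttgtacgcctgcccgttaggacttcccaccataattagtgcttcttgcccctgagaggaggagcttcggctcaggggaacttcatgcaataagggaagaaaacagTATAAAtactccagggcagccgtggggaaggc
Of the 10 genes, 8 had a window in the table, with 9 windows in all. The 5 motifs named here were searched on both strands in these 250 bases. TATAAA was found in 1 of the 9 windows, that of Col10a1, 32 bases before the start, and in 12.4% of all 32851 windows. The AP-1 letters TGANTCA were found for Col6a1 (6.75% of all windows), GGAATG, a TEAD-type motif, for Col6a2 (12.6%), CCAAT for Col16a1 (33.8%) and TGTGGT for Col8a1 (14%). No pair of members shared a motif. The window of Col10a1 held 41.6% G and C, that of Col8a1 60.8% and that of Col8a2 70%, where the median of all windows was 52.4%. A match is a description of letters and does not show binding.

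Depth was 5790599 to 15240328 counts per library, and the shallowest library is the whole CD26+ class of WB1P mouse 6. The sort was visible in Dpp4, which ranged from 0.620 to 15.3 CPM in all CD26- sums and from 234 to 805 CPM in all CD26+ sums. CPM is a gene's count scaled to a common library size, adjusted by edgeR's TMM factors. Fibroblast markers (7 genes) were high in every group, with sums of at least 14640 CPM. Markers of mural cells were higher in CD26- CAFs than in the other groups. The 8 pericyte markers summed to 1837 to 5359 CPM in WB1P and 2396 to 9245 CPM in WB1P-Myc CD26- CAFs, against 204 to 372 CPM in CD26- NFs and 158 to 393 CPM in CD26+ CAFs, and none of the 8 was at 0 in a group. The 6 smooth muscle markers summed to 1603 to 2599 CPM and 883 to 2365 CPM in the same CD26- CAFs and to 107 to 231 CPM in CD26- NFs, again with none at 0. In CD26+ cells they summed to 249 to 473 CPM in WB1P CAFs, 173 to 482 CPM in WB1P-Myc CAFs and 15.9 to 186 CPM in NFs. Chondrocyte markers (7 genes) summed to 64.3 to 162 CPM in WB1P and 22.7 to 126 CPM in WB1P-Myc CD26- CAFs and 9.57 to 11.0 CPM in CD26- NFs, where Matn1 was at 0. Over all groups the sums reached at most 187 CPM for 7 epithelial, 249 CPM for 7 immune, 70.0 CPM for 5 endothelial, 56.7 CPM for 4 Schwann cell and 11.0 CPM for 4 adipocyte markers, and 5 proliferation markers summed to 3.51 to 103 CPM in NFs and 141 to 396 CPM in CAFs. In bulk samples, fewer cells of a type and less RNA per cell cannot be told apart, and the part of these marker differences in the collagen results was not tested.

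The genes lie on 6 chromosomes (GRCm38, coordinates as deposited). Col8a1 spans bases 57624258 to 57754737 of chromosome 16 and Col8a2 126286793 to 126314330 of chromosome 4. Col10a1 spans 34389981 to 34397085 of chromosome 10. Col12a1 spans 79598991 to 79718831 of chromosome 9, Col14a1 55307750 to 55520803 of chromosome 15 and Col16a1 130047840 to 130099283 of chromosome 4. Col6a1 (76708792 to 76726168) and Col6a2 (76595762 to 76623630) are neighbours on chromosome 10, Col6a3 spans 90765923 to 90843971 of chromosome 1 and Col6a6 105687809 to 105828160 of chromosome 9. Counts were made per gene. The annotated exons of the members add up to between 3.13 kb in Col10a1 and 15.2 kb in Col12a1. Levels per kb assume that the counts cover these exons, which the sources used here do not state. Col10a1 lies inside Nt5dc1 on the opposite strand and shares 18 exonic bases with it. Nt5dc1 had 200 to 307 counts in every NF sum, in all of which Col10a1 had 0. Whether the counting used strand is not given in the sources used here, so reads in the shared bases could belong to either gene. Col6a6 shares 63 exonic bases with Gm38314, which had 0 counts, and no other member shares exonic bases with another gene.

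In NFs the 3 main type VI chains were the most abundant of the 10 genes per kb of exon. In CD26- NFs the mean of Col6a1 was 989 CPM per kb, followed by Col6a2 at 548 and Col6a3 at 443 CPM per kb. Next in order came Col14a1 (117), Col16a1 (83.7) and Col12a1 (22.0 CPM per kb). Col6a6, Col8a2 and Col8a1 were at 5.99, 1.76 and 0.481 CPM per kb. The ranges of Col6a2 and Col6a3 overlapped, as did those of Col14a1 and Col16a1. In WB1P CD26- CAFs the order was Col6a1 (1371), Col6a3 (868), Col12a1 (679), Col6a2 (646) and Col8a1 (307 CPM per kb), where Col6a3 overlapped Col12a1 and Col12a1 overlapped Col6a2. In CD26+ CAFs of both models Col6a1 was first and Col14a1 second, at 622 CPM per kb in WB1P and 555 CPM per kb in WB1P-Myc, with overlapping ranges.

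**Figure D1:**
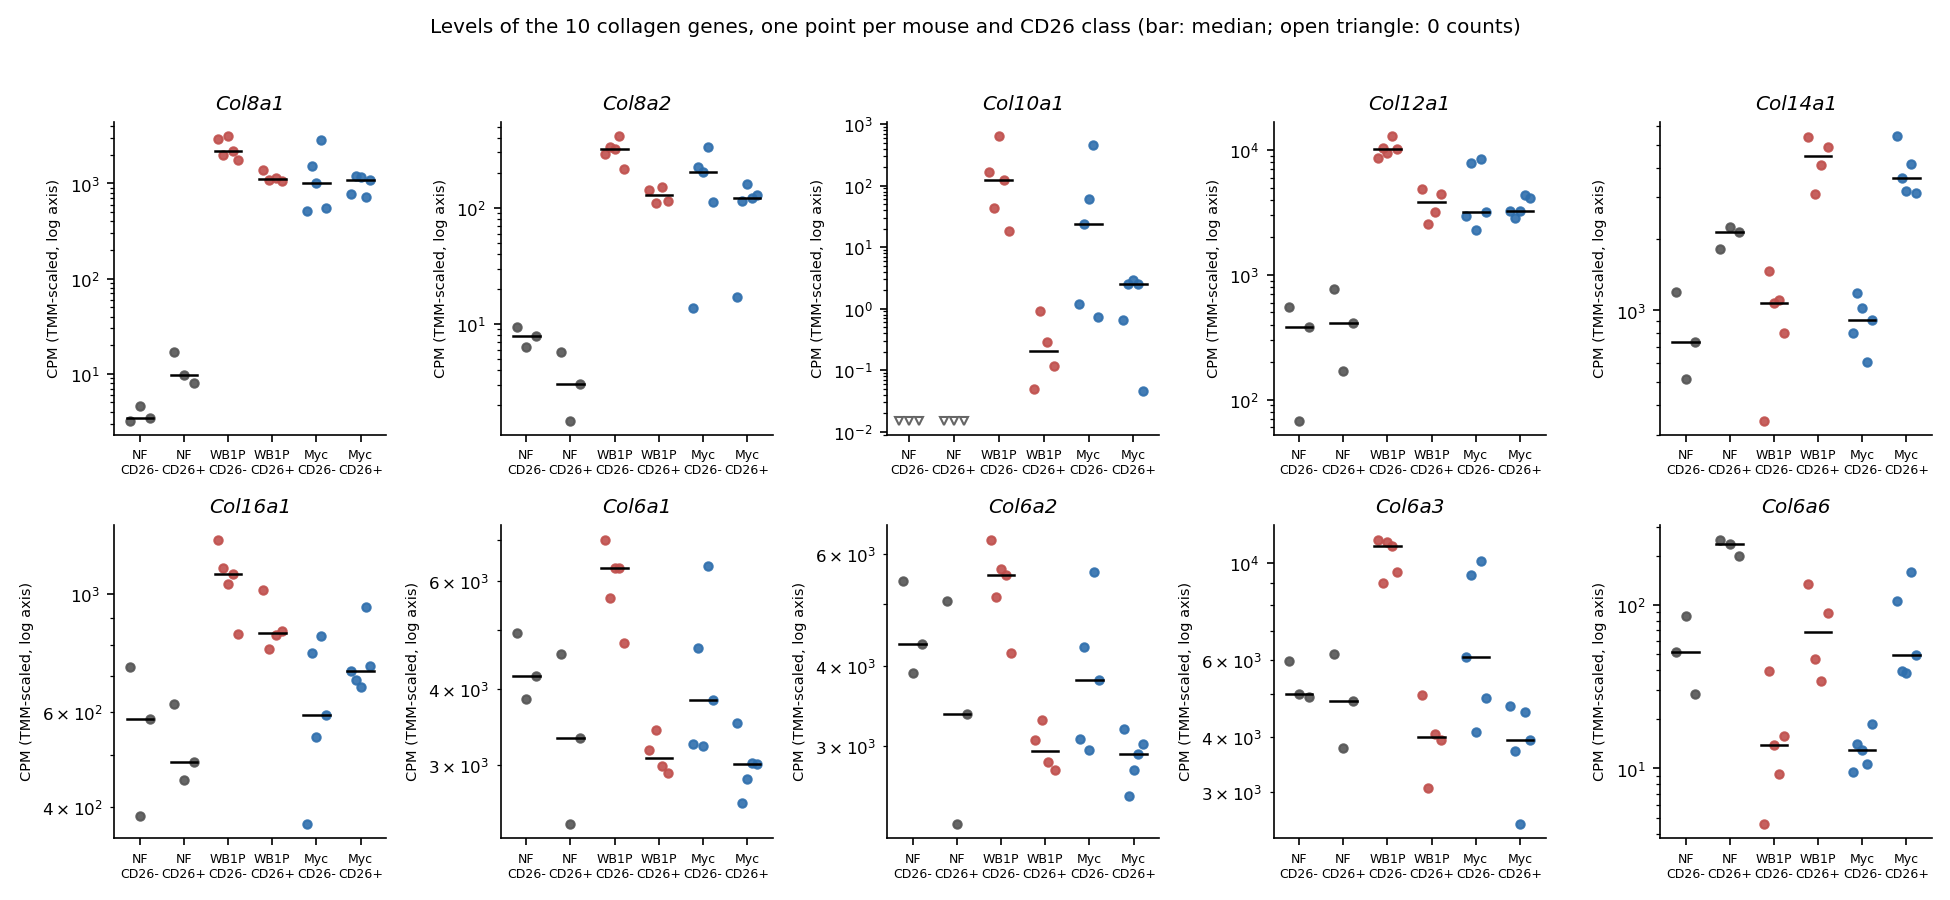
CPM (TMM-scaled, log axis) of each of the 10 genes in 6 groups, with 1 point per mouse and CD26 class, a bar at the group median and open triangles where a sum held 0 counts. Col8a1, Col8a2 and Col12a1 lie higher in all 4 CAF groups than in NFs, Col10a1 is high in WB1P CD26- CAFs and spread over a wide range in WB1P-Myc CD26- CAFs, and Col14a1 and Col6a6 are higher in CD26+ than in CD26- fibroblasts.

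CAFs were first compared with NFs of the same CD26 class, which asks which of the collagens differ between tumor and normal stroma. The 4 comparisons share controls within a class, so their values stand side by side and are not independent. The members were chosen with earlier results known, so their counts here and below are a description beside the shares of all genes. In WB1P CD26- CAFs 6 of the 10 genes were higher and 1 was lower (FDR under 0.05, edgeR's quasi-likelihood test), where 17.6% of all 16601 genes tested were higher and 17.8% lower. In WB1P-Myc CD26- CAFs 4 were higher and 1 lower (19.1% and 17.5% of all genes). In WB1P CD26+ CAFs 5 were higher and 1 lower (17.4% and 16.1%), and in WB1P-Myc CD26+ CAFs 4 were higher and 1 lower (17.4% and 17.3%). With the study's further limit of an absolute log2 fold change over 2, the counts were 4, 5, 3 and 3 genes, beside 11.5%, 10.6%, 7.85% and 7.42% of all genes. The median log2 fold change of the 10 genes was 0.945 in WB1P CD26- and 0.266 in WB1P-Myc CD26- CAFs, and 0.916 and 0.723 in the CD26+ CAFs, while that of all genes was between -0.0087 and 0.0200. Col8a1, Col8a2 and Col12a1 were higher and Col6a6 lower in all 4 comparisons. Without control mouse 3 the count fell from 6 to 3 in WB1P CD26+ CAFs, and without control mouse 2, control mouse 3 or WB1P-Myc mouse 10 it fell from 5 to 3 in WB1P-Myc CD26+ CAFs.

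Col8a1, the alpha1 chain of type VIII collagen, showed the steepest rise among the members with counts in NFs. It was at 3.22, 4.64 and 3.44 CPM in the 3 CD26- NF sums and at 2964, 1979, 3138, 2212 and 1745 CPM in WB1P CD26- CAFs (log2 fold change 9.32 ± 0.63, FDR 1.18e-09), which is a 638-fold difference. The lowest CAF value lay far above the highest NF value of this class. In WB1P-Myc CD26- CAFs it was at 513, 1539, 1020, 2885 and 558 CPM (log2 fold change 8.43 ± 0.61, FDR 4.55e-09), with the highest value in mouse 12 and the lowest in mouse 9. CD26+ NFs held 16.9, 9.78 and 7.92 CPM, and CD26+ CAFs 1398, 1080, 1136 and 1072 CPM in WB1P (log2 fold change 6.67 ± 0.56, FDR 1.02e-07) and 781, 1186, 1175, 713 and 1092 CPM in WB1P-Myc tumors (log2 fold change 6.42 ± 0.55, FDR 2.02e-07). The CD26+ CAFs of both models thus formed a narrow band well above their NFs. In these CAFs the pericyte sum was 158 to 393 CPM, beside 167 to 190 CPM in CD26+ NFs, and the smooth muscle sum was 249 to 473 CPM in WB1P and 173 to 482 CPM in WB1P-Myc tumors, beside 15.9 to 186 CPM. The chondrocyte sum was 44.2 to 69.0 CPM and 17.8 to 37.9 CPM, beside 11.1 to 24.6 CPM in CD26+ NFs, and the part of these sums was not tested. These calls held under all 20 alternatives of each comparison.

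Col8a2, whose alpha2 chain can form type VIII networks with or without alpha1, was higher in CAFs as well. It was at 9.39, 6.36 and 7.95 CPM in CD26- NFs and at 290.4, 331, 323, 413 and 217 CPM in WB1P CD26- CAFs (log2 fold change 5.32 ± 0.80, FDR 2.74e-05). WB1P-Myc CD26- CAFs held 13.8, 226, 205, 335 and 112 CPM (log2 fold change 4.50 ± 0.76, FDR 0.000130), where mouse 9 was low and just above the highest NF value. The same mouse was low in its CD26+ class, in which WB1P-Myc CAFs held 17.2, 115, 161, 122 and 129 CPM (log2 fold change 4.98 ± 0.79, FDR 0.000108) and NFs 5.78, 1.47 and 3.06 CPM. Mouse 9 also had the highest pericyte sum of all CD26- CAFs, 9245 CPM, and its CD26- class is a single GFP- library. In WB1P CD26+ CAFs Col8a2 was at 142, 111, 152 and 115 CPM (log2 fold change 5.24 ± 0.81, FDR 8.07e-05). All 4 calls held under every alternative run.

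The balance of the type VIII genes is given as the log2 ratio of Col8a1 to Col8a2 CPM, without a test and without scaling to exon length. In CD26- NFs it ran from -1.54 to -0.45, so Col8a2 had the larger count, and in CD26+ NFs from 1.37 to 2.73. In WB1P CAFs it ran from 2.42 to 3.35 (CD26-) and from 2.90 to 3.30 (CD26+). WB1P-Myc CAFs ran from 2.31 to 5.22 (CD26-) and from 2.55 to 5.51 (CD26+), and the highest value of both classes was that of mouse 9.

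Col10a1, the type X chain of growth plate cartilage, had 0 counts in each of the 6 NF sums and all 12 control libraries, of 79347131 (CD26-) and 80744215 (CD26+) counts in all. In WB1P CD26- CAFs it was at 167, 43.8, 634, 125 and 18.4 CPM (499 to 16312 counts). The spread was wide, and mouse 6 stood far above the other 4 mice. Set against the limit that a count of 0 allows in the NFs (3 counts over the group, 0.0352 CPM), the pooled level was at least 5839-fold higher. This bound covers counting error only and not the spread between mice. In edgeR's test, which does not test the bound, the group difference had FDR 0.00159. Mouse 6 gave 16312 of the 22805 counts, and without it the bound was 2165-fold. WB1P-Myc CD26- CAFs held 1.18, 24.0, 59.5, 448 and 0.731 CPM, at least 3595-fold higher when pooled, by the same kind of bound. Their difference from NFs had FDR 0.00270 in edgeR's test. Mouse 12 alone gave 11881 of the 13491 counts of that group, whereas mice 9 and 13 had 16 counts each, and without mouse 12 the bound was 571-fold. With mouse as a random effect in limma voom, the FDR was 0.114 for WB1P and 0.211 for WB1P-Myc CD26- CAFs. CD26+ CAFs had few counts: 1 to 8 per mouse in WB1P (0.0498, 0.905, 0.292 and 0.117 CPM) and 1 to 55 in WB1P-Myc (0.655, 2.47, 2.87, 2.53 and 0.0455 CPM), whose differences from CD26+ NFs did not pass the test (FDR 0.506 and 0.121; 0.0200 and 3.30e-04 by DESeq2's Wald test).

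**Figure D2:**
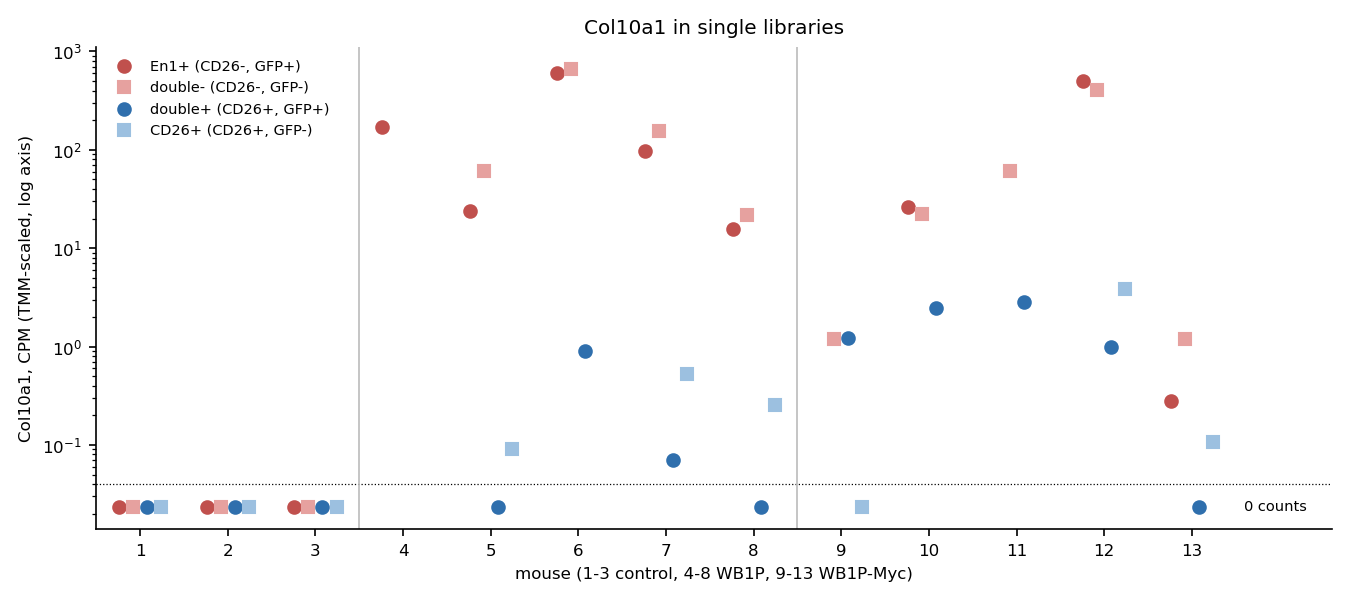
Col10a1 in single libraries (CPM, TMM-scaled, log axis) by mouse, with CD26- libraries in red and CD26+ libraries in blue, GFP+ cells as circles and GFP- cells as squares; points under the dotted line had 0 counts. CD26- libraries of WB1P and WB1P-Myc mice range from 603 and 664 CPM in WB1P mouse 6 to 0.278 and 1.21 CPM in WB1P-Myc mouse 13.

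GFP+ and GFP- libraries ranked the mice alike by Col10a1 in CD26- CAFs. GFP+ and GFP- cells held 603 and 664 CPM in WB1P mouse 6, 97.8 and 156 CPM in mouse 7, 23.8 and 60.6 CPM in mouse 5 and 15.7 and 21.7 CPM in mouse 8. In WB1P-Myc tumors they held 497 and 408 CPM in mouse 12, 26.1 and 22.0 CPM in mouse 10 and 0.278 and 1.21 CPM in mouse 13. Mice 4, 9 and 11 had 1 CD26- library each. The order of the other mice was the same in GFP+ and GFP- cells of each tumor model.

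Col12a1, the FACIT chain found in stretched and healing tissue, was higher in CAFs of both models and classes. It was at 552, 67.9 and 384 CPM in CD26- NFs, with control mouse 2 low, and at 8622, 10382, 9496, 12917 and 10294 CPM in WB1P CD26- CAFs (log2 fold change 4.95 ± 0.65, FDR 6.03e-06). In WB1P-Myc CD26- CAFs it was at 2948, 7902, 2295, 8542 and 3197 CPM (log2 fold change 3.89 ± 0.61, FDR 6.00e-05). Mice 10 and 12 were near the WB1P values and mice 9, 11 and 13 lower, but all were above the NFs. CD26+ NFs held 775, 171 and 411 CPM, WB1P CD26+ CAFs 4864, 2570, 3195 and 4421 CPM (log2 fold change 3.06 ± 0.59, FDR 0.000684) and WB1P-Myc CD26+ CAFs 3253, 2862, 3262, 4404 and 4132 CPM (log2 fold change 2.98 ± 0.58, FDR 0.000715). The groups did not overlap in any of the 4 comparisons, and all 4 calls held under every alternative run.

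Col14a1, the FACIT chain of mature connective tissue, rose in the CD26+ class of both tumor models and did not pass the test in CD26- CAFs. CD26- NFs held 1196, 516 and 739.7 CPM, WB1P CD26- CAFs 344, 1464, 1072, 1108 and 802 CPM (log2 fold change 0.23 ± 0.34, FDR 0.624) and WB1P-Myc CD26- CAFs 804, 1181, 1021, 608 and 914 CPM (log2 fold change 0.15 ± 0.34, FDR 0.753), and these ranges overlapped. CD26+ NFs held 1820, 2238 and 2137 CPM, below every CD26+ CAF value of 5400, 3104, 4083 and 4873 CPM in WB1P (log2 fold change 1.08 ± 0.36, FDR 0.0246) and 5419, 3610, 3189, 4129 and 3115 CPM in WB1P-Myc tumors (log2 fold change 0.91 ± 0.35, FDR 0.0439). Both CD26+ calls were near the threshold. The WB1P call was lost in 4 of 20 alternatives, without mice 1, 3 or 8 and with mouse as a random effect (FDR 0.0571 to 0.132). The WB1P-Myc call was lost in 13 of 20, without mice 1, 2, 3, 6, 7, 8, 9, 10 or 12 and in 4 other settings (FDR 0.0501 to 0.110; 0.88 and FDR 0.0998 with mouse as a random effect), with log2 fold changes between 0.77 and 0.99.

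Col16a1, whose chain sits at the border of fibrils and microfibrils, was modestly higher in WB1P CAFs. It was at 728, 383 and 584 CPM in CD26- NFs and 1261, 1114, 1042, 1088 and 841 CPM in WB1P CD26- CAFs (log2 fold change 0.92 ± 0.23, FDR 0.00362). WB1P-Myc CD26- CAFs held 371, 775, 539, 833 and 594 CPM (log2 fold change 0.14 ± 0.22, FDR 0.648), a range that overlapped the NFs. In the CD26+ class NFs held 621, 449 and 485 CPM, WB1P CAFs 1015, 788, 837 and 853 CPM (log2 fold change 0.75 ± 0.24, FDR 0.0185) and WB1P-Myc CAFs 716, 689, 669, 943 and 732 CPM (log2 fold change 0.53 ± 0.23, FDR 0.0713). The WB1P CD26+ call was lost without control mouse 2 (0.67, FDR 0.0594) or control mouse 3 (0.72, FDR 0.0774).

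Of the main chains of type VI collagen, Col6a3 in WB1P CD26- CAFs was the 1 that passed the test against NFs. Col6a3, the large alpha3 chain, was at 5964, 5011 and 4927 CPM in CD26- NFs and 11292, 8988, 11179, 10926 and 9541 CPM in WB1P CD26- CAFs (log2 fold change 0.97 ± 0.28, FDR 0.00881), with every CAF value above every NF value. In WB1P-Myc CD26- CAFs it was at 6096, 9368, 4103, 10112 and 4908 CPM (log2 fold change 0.38 ± 0.27, FDR 0.270), where mice 10 and 12 were near the WB1P values and the others near or within the NF range. Col6a1 was at 4945, 3852 and 4201 CPM in CD26- NFs, 7020, 5626, 6316, 6302 and 4764 CPM in WB1P (log2 fold change 0.47 ± 0.22, FDR 0.102) and 3250, 4670, 3223, 6351 and 3840 CPM in WB1P-Myc CD26- CAFs (log2 fold change -0.022 ± 0.22, FDR 0.948). Col6a2 behaved like its neighbour Col6a1, with log2 fold changes of 0.24 ± 0.23 (FDR 0.440) and -0.21 ± 0.23 (FDR 0.487). In the CD26+ class none of the 3 genes passed the test in either model, with log2 fold changes between -0.34 and -0.13 and FDR from 0.29 to 0.683.

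Col6a6, the alternative alpha6 chain, was the one member that was lower in CAFs. It was at 51.2, 85.1 and 28.4 CPM in CD26- NFs, 4.57, 39.5, 13.8, 9.25 and 15.7 CPM in WB1P (log2 fold change -1.72 ± 0.54, FDR 0.0167) and 9.54, 14.1, 13, 10.7 and 18.8 CPM in WB1P-Myc CD26- CAFs (log2 fold change -2.05 ± 0.54, FDR 0.00574). The highest WB1P value, 39.5 CPM in mouse 5, lay within the NF range, and no WB1P-Myc value did. CD26+ NFs held 250.1, 236 and 198 CPM, above the 133, 46.7, 34.3 and 89.1 CPM of WB1P (log2 fold change -1.59 ± 0.57, FDR 0.0368) and the 106, 39.2, 38.4, 159 and 49.5 CPM of WB1P-Myc CD26+ CAFs (log2 fold change -1.54 ± 0.54, FDR 0.0303). Without control mouse 2, the highest of the CD26- NFs, the log2 fold changes were -1.24 (FDR 0.145) in WB1P and -1.57 (FDR 0.0594) in WB1P-Myc CD26- CAFs. In CD26+ CAFs the WB1P call was lost without mice 1, 2, 3, 6, 7 or 8 (FDR 0.0561 to 0.109) and the WB1P-Myc call without mice 1, 2, 3, 10, 11 or 13 (FDR 0.0574 to 0.0811), with the direction kept each time.

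**Figure D3:**
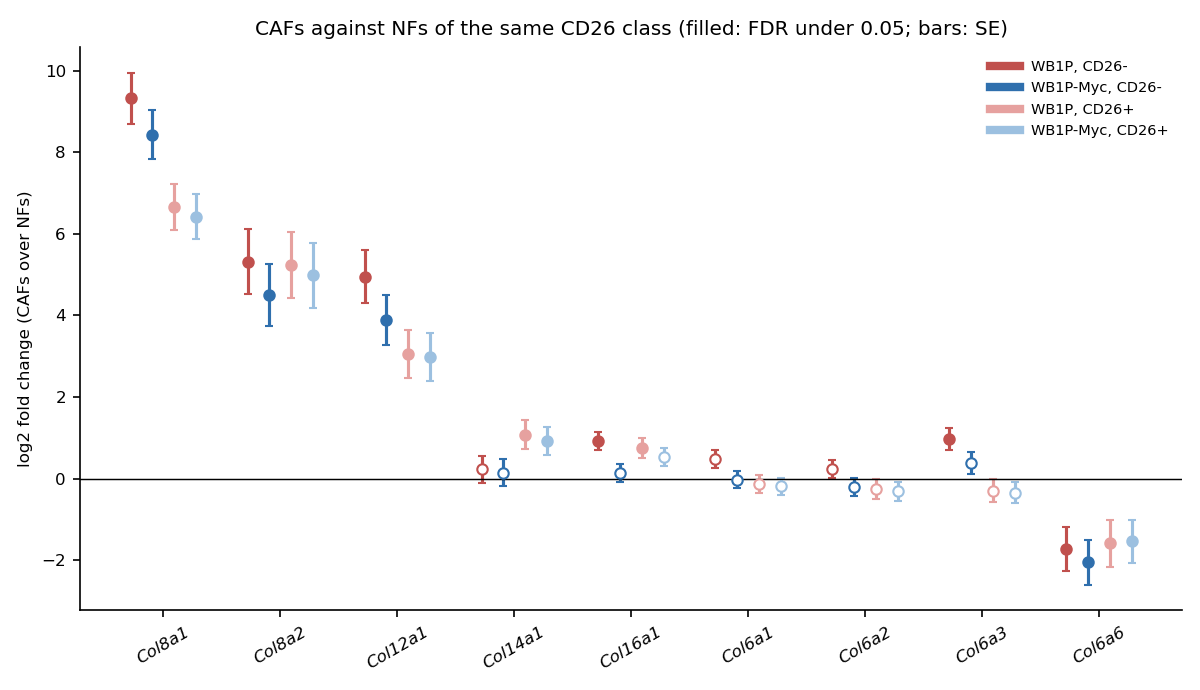
Log2 fold change of CAFs over NFs of the same CD26 class (vertical axis) for the 9 genes with counts in NFs, in WB1P and WB1P-Myc tumors; bars are standard errors and filled points passed FDR under 0.05. Col8a1 reached 9.32 in WB1P CD26- CAFs, Col6a6 lay below 0 in all 4 comparisons, and Col6a1 and Col6a2 lay near 0.

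CD26+ fibroblasts were then compared with CD26- fibroblasts of the same tissue, to see which collagens follow the CD26 class. In NFs 1 member was higher in CD26+ cells and 0 were lower, where 2.67% of all genes were higher and 1.49% lower. In WB1P CAFs 2 were higher and 6 lower, beside 13% higher and 13% lower among all genes. In WB1P-Myc CAFs 2 were higher and 2 lower, beside 9.29% and 10.7% of all genes. With an absolute log2 fold change over 2 the counts were 0, 3 and 3 members, beside 2.18%, 7.62% and 6.56% of all genes. In WB1P CAFs, CD26- cells thus held more Col8a1, Col10a1, Col12a1, Col6a1, Col6a2 and Col6a3 by these calls. In WB1P-Myc CAFs this was called for Col10a1 and Col6a3 only. CD26+ CAFs of both models held more Col14a1 and Col6a6. Pericyte and smooth muscle sums moved with the CD26 class of CAFs, as given above, and their part was not tested.

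Col14a1 was higher in CD26+ cells of all 3 tissues. The log2 fold change was 1.34 ± 0.38 (FDR 0.0467) in NFs, 2.19 ± 0.31 (FDR 2.28e-05) in WB1P and 2.10 ± 0.30 (FDR 2.53e-05) in WB1P-Myc CAFs, and it was higher in 3 of 3, 4 of 4 and 5 of 5 mice. The calls in CAFs held in every alternative, but that in NFs was lost in 13 of 20 (FDR 0.0506 to 0.474, log2 fold change 1.03 to 1.35), in 10 of them by leaving out 1 mouse (2, 3 or any of 6 to 13). Col6a6 had the same direction in every mouse, with 2.06 ± 0.64 (FDR 0.0753) in NFs, 2.19 ± 0.52 (FDR 0.00318) in WB1P and 2.57 ± 0.51 (FDR 0.000803) in WB1P-Myc CAFs. With mouse as a block the value in NFs passed the test (2.19, FDR 0.00576).

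Col10a1 had the largest CD26 difference. It was lower in CD26+ cells, with log2 fold changes of -9.75 ± 2.08 (FDR 0.00196) in WB1P and -6.01 ± 1.48 (FDR 0.00667) in WB1P-Myc CAFs, in 4 of 4 and 5 of 5 mice. The WB1P-Myc classes overlapped. CD26- cells of mice 9 and 13 held 1.18 and 0.731 CPM, within the CD26+ range of 0.0455 to 2.87 CPM. Without mouse 12 the WB1P-Myc value was -3.93 (FDR 0.0619) and without both mice marked 8x8 it was -3.87 (FDR 0.0714). In NFs, which had no counts, no value could be estimated. Col12a1 was lower in CD26+ CAFs of WB1P tumors, at -1.46 ± 0.48 (FDR 0.0287) and in 4 of 4 mice, a call that was lost without mice 6, 7 or 8 (FDR 0.0581 to 0.119). In WB1P-Myc CAFs it was at -0.47 ± 0.44 (FDR 0.507), and 3 of 5 mice were higher in the CD26+ class.

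Between CD26 classes, Col8a1 was higher in CD26+ cells of all 3 control mice and lower in those of all 4 WB1P mice. Its log2 fold change was 1.61 ± 0.47 (FDR 0.0560) in NFs and -1.04 ± 0.37 (FDR 0.0439) in WB1P CAFs. The difference between these values was itself tested and was -2.65 ± 0.60 (FDR 0.0233). It passed in 15 of 20 alternatives and was lost without mice 1, 2, 3, 6 or 7 (FDR 0.0613 to 0.180, values of -2.94 to -2.18). The WB1P value alone was lost in 9 of 20 alternatives, without mice 3, 4, 5, 6, 7, 8 or 10, without a low-count filter and with mouse as a block (-0.92, FDR 0.0714). Col8a2 was at -1.20 ± 0.72 (FDR 0.524), -1.27 ± 0.57 (FDR 0.107) and -0.72 ± 0.53 (FDR 0.386) in NFs, WB1P and WB1P-Myc CAFs, and with mouse as a block the first of these values passed (-1.34, FDR 0.0207), as did the second (-1.28, FDR 0.00215). In WB1P-Myc CAFs Col8a1 was at -0.40 ± 0.35 (FDR 0.476), and it was higher in the CD26+ class of 3 of 5 mice. Col8a2 was higher in that class of 2 of 5 WB1P-Myc mice.

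The main type VI chains were lower in CD26+ CAFs of WB1P tumors. Col6a3 was at -1.37 ± 0.25 (FDR 0.000357), Col6a1 at -0.94 ± 0.20 (FDR 0.00164) and Col6a2 at -0.85 ± 0.21 (FDR 0.00493), lower in 4 of 4 mice each. These 3 calls held in every alternative. In WB1P-Myc CAFs Col6a3 was at -0.83 ± 0.23 (FDR 0.0124) and lower in 5 of 5 mice, a call lost without mouse 10 (-0.69, FDR 0.0677) or mouse 12 (-0.72, FDR 0.0516), without both mice marked 8x8 (FDR 0.0694) and with only the groups compared (FDR 0.0639), while Col6a1 and Col6a2 were at -0.51 ± 0.19 (FDR 0.0637) and -0.46 ± 0.20 (FDR 0.109) and lower in 4 of 5 mice. In NFs the 3 genes were at -0.34 ± 0.24 (FDR 0.659) (Col6a1), -0.36 ± 0.26 (FDR 0.649) (Col6a2) and -0.10 ± 0.30 (FDR 0.965) (Col6a3). Col16a1 did not pass in any tissue, with -0.12 ± 0.25 (FDR 0.934), -0.29 ± 0.21 (FDR 0.317) and 0.27 ± 0.19 (FDR 0.372).

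**Figure D4:**
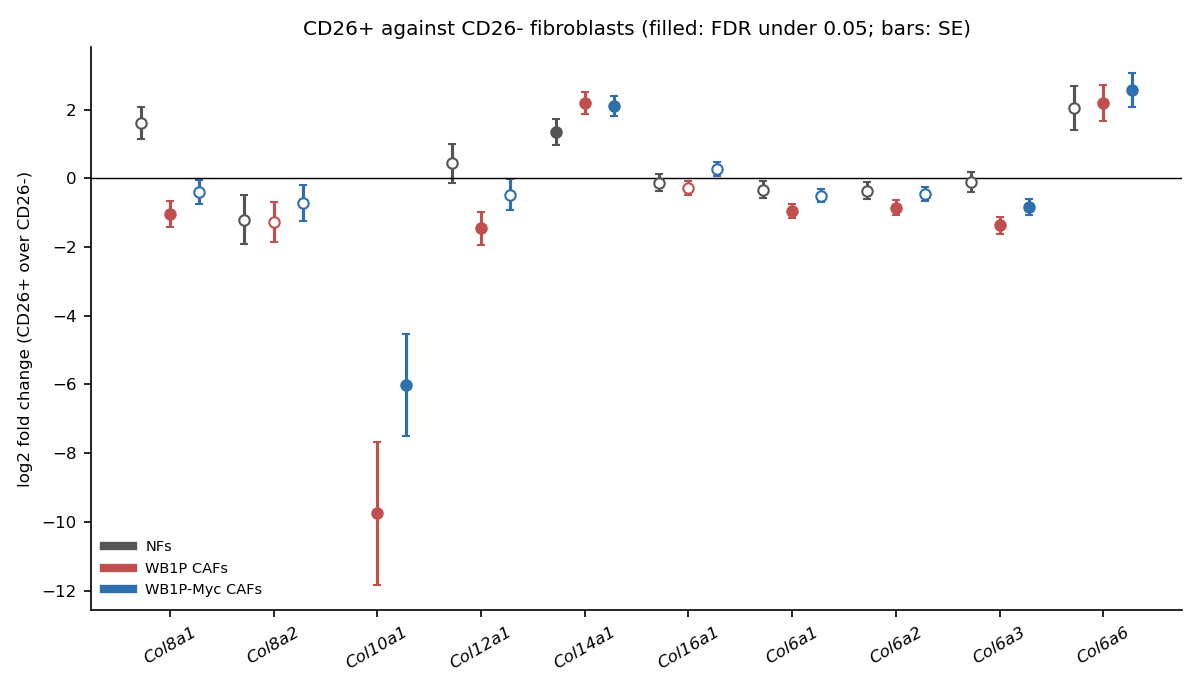
Log2 fold change of CD26+ over CD26- fibroblasts (vertical axis) for the 10 genes in NFs, WB1P CAFs and WB1P-Myc CAFs; bars are standard errors and filled points passed FDR under 0.05, and Col10a1 has no value in NFs. Col14a1 and Col6a6 lie above 0 in all 3 tissues, and Col8a1 lies at 1.61 in NFs and -1.04 in WB1P CAFs.

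The change of the CD26 difference from NFs to CAFs was tested gene by gene. Col8a1 in WB1P CAFs was the 1 member that passed, beside 1.86% of all genes, and 0 passed for WB1P-Myc CAFs, beside 1.16% of all genes (1 member and 1611 genes at an unadjusted p under 0.05, and 1 member and 414 genes by DESeq2). With mouse as a block Col12a1 (-2.19, FDR 0.0232) and Col6a3 (-1.23, FDR 0.0447) passed as well in WB1P CAFs. No gene passed the test of the CD26 difference between the 2 tumor models (0%, 549 genes at an unadjusted p under 0.05 and 2 by DESeq2), and 0 members had an unadjusted p under 0.05.

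Ratios of FACIT genes summarise how the fibril-surface collagens differed, without a test. They are ratios of CPM and are not scaled to exon length, which is 15.2 kb in Col12a1 and 7.01 kb in Col14a1. The log2 ratio of Col12a1 to Col14a1 CPM ran from -2.93 to -0.94 in CD26- NFs and from -3.71 to -1.23 in CD26+ NFs, so Col14a1 had the larger count in every NF sum. It ran from 2.83 to 4.65 in WB1P and from 1.17 to 3.81 in WB1P-Myc CD26- CAFs, where Col12a1 had the larger count in every mouse. In CD26+ CAFs both genes had similar counts, with ratios from -0.35 to -0.14 in WB1P and from -0.74 to 0.41 in WB1P-Myc tumors. Per kb of exon the mean of Col14a1 was the higher one there. It was 622 against 247 CPM per kb for Col12a1 in WB1P, and 555 against 235 in WB1P-Myc tumors. Among the type VI genes, the log2 ratio of Col6a3 to Col6a1 stayed between -0.17 and 1.00 in all 25 sums. The log2 ratio of Col6a3 to Col6a6 was lowest in CD26+ NFs (4.00 to 4.63) and highest in CD26- CAFs (7.83 to 11.3 in WB1P and 8.03 to 9.89 in WB1P-Myc tumors).

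**Figure D5:**
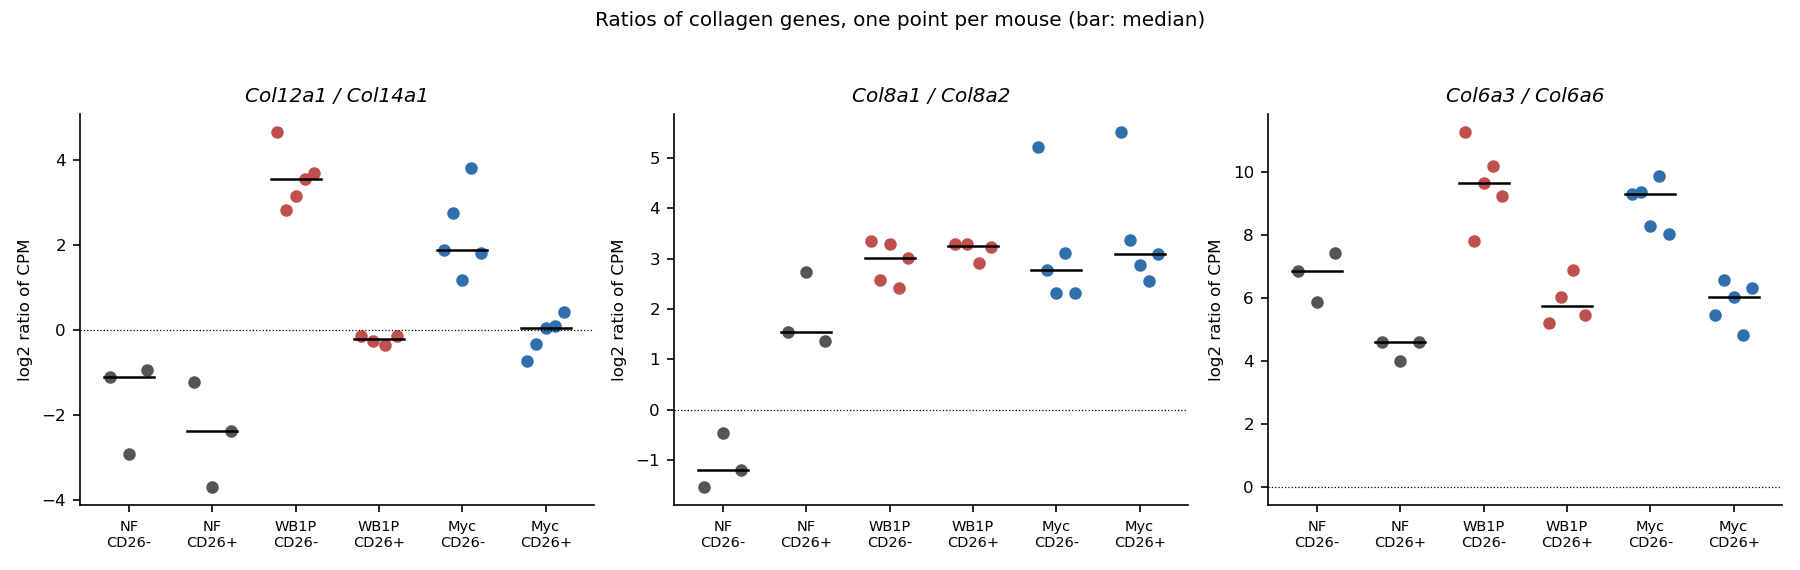
Log2 ratios of CPM (vertical axes) of Col12a1 to Col14a1, Col8a1 to Col8a2 and Col6a3 to Col6a6, with 1 point per mouse and a bar at the median of each of the 6 groups. The ratios are not scaled to exon length, so 0 does not mean equal levels per kb. The Col12a1 to Col14a1 ratio lies below 0 in all NFs, above 0 in all CD26- CAFs and between -0.74 and 0.41 in CD26+ CAFs.

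WB1P-Myc CAFs were also compared with WB1P CAFs, to see whether the Myc allele in the tumor goes with other collagen levels. In CD26- CAFs 0 members passed the test, 6 had an unadjusted p under 0.05 and 1 was called by DESeq2, beside 0.205% of all genes higher and 0.307% lower (2405 genes, or 14.5%, at an unadjusted p under 0.05 and 402, or 2.42%, by DESeq2). All 10 members had log2 fold changes below 0 there, beside 46.1% of all genes. Their median was -0.683, and that of all genes 0.032. The groups were not balanced for the En1 lineage. The CD26- class was a GFP+ library alone in WB1P mouse 4 and a GFP- library alone in WB1P-Myc mice 9 and 11. Pericyte markers summed to 2396 to 9245 CPM in WB1P-Myc and 1837 to 5359 CPM in WB1P CD26- CAFs. The part of lineage and pericyte markers in these differences was not tested. Col16a1 was at -0.78 ± 0.19 (FDR 0.0706) and Col12a1 at -1.06 ± 0.44 (FDR 0.272), and for both every WB1P-Myc value was below every WB1P value. Col16a1 passed with mouse as a random effect (-0.86, FDR 0.0484) and without WB1P-Myc mouse 12 (-0.90, FDR 0.0254), and so did Col8a1 without that mouse (-1.40, FDR 0.0240; -0.89 ± 0.35 (FDR 0.242) with it). In CD26+ CAFs 0 members passed, 0 had an unadjusted p under 0.05 and 0 were called by DESeq2, beside 0% of all genes in either direction (646 genes at an unadjusted p under 0.05 and 9 by DESeq2). Of the 10 genes, the 9 other than Col10a1 had log2 fold changes between -0.26 and 0.05 there, with standard errors of 0.20 to 0.56.

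The En1 lineage was compared within each CD26 class on single libraries. No member passed in any of the 4 comparisons by edgeR or DESeq2, or with mouse as a block, where 1 member (Col16a1 in CD26- CAFs, 0.23 ± 0.096, FDR 0.529) had an unadjusted p under 0.05 and 25, 11, 3 and 3 of all genes were called. Of the 7 mice with both CD26- CAF libraries, Col8a1 and Col6a3 were higher in GFP+ cells in 7 and Col8a2, Col12a1, Col16a1, Col6a1 and Col6a2 in 6. Col14a1 was higher in GFP+ cells in 3 of the 7 mice, Col10a1 in 2 and Col6a6 in 1. The share of all genes with such one-sided counts was not determined. Levels of members are correlated (Col6a1 and Col6a2, r = 0.979 across the sums), so their counts need not be independent. With mouse as a block, the members had FDR 0.529 to 0.965 in these CAFs. The counts are thus a description and do not show a difference by En1 lineage. GFP+ against GFP- CD26- NFs gave log2 fold changes from -0.24 to 0.23 for the 9 members with counts, with 0 members at an unadjusted p under 0.05 and 0.00642% of all 15584 genes called. In CD26- CAFs they ran from -0.40 to 0.39, with 1 member at an unadjusted p under 0.05 (Col16a1, 0.31 ± 0.14, unadjusted p = 0.0376 by edgeR's model over all genes) and 0% of all genes called (641 at an unadjusted p under 0.05 and 8 by DESeq2). In CD26+ NFs they ran from -0.19 to 0.75 (9 members) and in CD26+ CAFs from -0.46 to 0.09, with 0 members at an unadjusted p under 0.05 in both, beside 0.00642% and 0.0193% of all genes called.

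Related collagens were read beside the members, from lists chosen with earlier results of these data known. Of 7 other FACIT genes 6 were in the table and 4 passed the filter, and 0 of the 4 passed the test in any of the comparisons between tissues or CD26 classes. Among 4 other genes listed with type VI collagen, Col6a4, an alpha4 chain, was near 0 in NFs (at most 0.219 CPM) and at 2.06 to 12.4 CPM in WB1P and 3.09 to 26.0 CPM in WB1P-Myc CD26- CAFs (log2 fold change 5.29 ± 0.88, FDR 8.55e-05, and 6.51 ± 0.91 (FDR 1.85e-05) in WB1P-Myc). Like Col10a1 it was lower in CD26+ CAFs, by -4.31 ± 0.75 (FDR 0.000185) in WB1P and -5.42 ± 0.69 (FDR 6.41e-06) in WB1P-Myc tumors. Col28a1, a type VI-like chain known from nerves, was higher in WB1P CD26- and CD26+ CAFs and in WB1P-Myc CD26- CAFs (2.95 ± 1.02 (FDR 0.0287), 2.91 ± 1.01 (FDR 0.0306) and 3.03 ± 1.03 (FDR 0.0253)). Col26a1 was lower in CD26+ CAFs of both models (-5.04 ± 1.03 (FDR 0.00103) in WB1P and -3.04 ± 0.80 (FDR 0.00615) in WB1P-Myc). Against NFs, 17.6% of all genes were higher and 17.8% lower in WB1P CD26- CAFs, and 19.1% and 17.5% in WB1P-Myc CD26- CAFs. The shares were 17.4% and 16.1% in WB1P CD26+ and 17.4% and 17.3% in WB1P-Myc CD26+ CAFs. Of the 4 genes listed with type VI collagen, 2 were higher and 0 lower, 2 and 1, 1 and 1, and 0 and 1 in this order. Of 11 fibrillar collagens 6 were higher and 0 lower in WB1P CD26- CAFs, 2 and 1 in WB1P-Myc CD26- CAFs, 3 and 1 in WB1P CD26+ and 3 and 2 in WB1P-Myc CD26+ CAFs. The cartilage fibril genes Col11a1 (4.03 ± 1.09 (FDR 0.00624) in WB1P, 3.27 ± 1.04 (FDR 0.0177) in WB1P-Myc) and Col2a1 (3.50 ± 1.00 (FDR 0.00943) and 3.85 ± 1.02 (FDR 0.00560)) had the largest changes among them in CD26- CAFs, and Col2a1 is also one of the 7 chondrocyte markers. In CD26+ CAFs it was Col24a1 (5.36 ± 0.85 (FDR 0.000113) in WB1P, 5.19 ± 0.84 (FDR 0.000131) in WB1P-Myc). Of 13 other non-fibrillar collagens 1 was higher and 4 were lower in CD26- CAFs of each model, and 0 were higher and 8 lower in CD26+ CAFs of each. The membrane collagen gene Col13a1 had the largest change of that list in all 4 comparisons, from -4.48 ± 0.78 (FDR 0.000164) in WB1P-Myc CD26- to -6.41 ± 1.01 (FDR 0.000100) in WB1P CD26+ CAFs.

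Genes that make or bind these collagens were chosen and counted in the same way. Of 20 collagen processing genes 14 were higher and 1 lower in WB1P CD26- CAFs, 10 and 1 in WB1P-Myc CD26- CAFs, 15 and 0 in WB1P CD26+ CAFs and 13 and 0 in WB1P-Myc CD26+ CAFs. Among all genes 17.6% were higher and 17.8% lower in the first of these comparisons, 19.1% and 17.5% in the second, 17.4% and 16.1% in the third and 17.4% and 17.3% in the last. P4ha3, a catalytic subunit of prolyl hydroxylase, led the list in all 4 with log2 fold changes of 4.53 ± 0.25 (FDR 8.85e-11), 4.00 ± 0.24 (FDR 6.71e-10), 3.75 ± 0.24 (FDR 1.22e-09) and 3.64 ± 0.23 (FDR 1.50e-09). Of 22 receptors and partners 11 were higher and 6 lower in WB1P CD26- CAFs, 9 and 5 in WB1P-Myc CD26-, 8 and 3 in WB1P CD26+ and 7 and 5 in WB1P-Myc CD26+ CAFs. Itga1, the alpha subunit of a collagen-binding integrin, was higher in CD26- CAFs (4.29 ± 0.44 (FDR 3.07e-07) in WB1P, 4.35 ± 0.44 (FDR 4.20e-07) in WB1P-Myc) and lower in CD26+ than in CD26- CAFs (-4.55 ± 0.40 (FDR 9.01e-08) and -4.28 ± 0.35 (FDR 3.90e-08)). Cspg4, a proteoglycan that binds type VI collagen and that is also one of the 8 pericyte markers, was higher in CD26- CAFs too (4.66 ± 0.64 (FDR 1.07e-05) and 4.36 ± 0.63 (FDR 2.54e-05)). Antxr1, a cell-surface receptor that binds type VI collagen, was lower in WB1P-Myc than in WB1P CD26- CAFs (-0.70 ± 0.16 (FDR 0.0488)), the 1 partner gene that passed there.

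The genes most like 9 of the members across the 25 sums are given as a description. The sums share groups and mice, and the search covered 8863 genes with a mean of at least 10 CPM. Col8a1 was most like P4ha3 (Pearson r = 0.978 of log2 CPM), Runx1 (0.978), a transcription factor gene, and Ccn2 (0.971), and Col8a2 like Ltbp2 (0.942), Myo7a (0.937) and Ddah1 (0.936). Col10a1 was most like Megf11 (0.949), Pmaip1 (0.938) and Cadm4 (0.934). Col12a1 was most like C1qtnf6 (0.969), Hs6st2 (0.952) and Mdga1 (0.949), and Col14a1 like Galnt16 (0.949), AW551984 (0.948) and Tgfbr2 (0.938). Col6a1 and Col6a2 were each other's closest gene (0.979), followed by C2cd2l (0.904 and 0.910) and by Col6a3 (0.898) for Col6a1 and Tcf25 (0.879) for Col6a2. Col6a3 was most like Kremen1 (0.915), Esyt2 (0.908) and Cmtm4 (0.904), and Col6a6 like Srgap1 (0.939), Diaph1 (0.932) and Rps6ka3 (0.932). Within the 10 genes, Col8a1, Col8a2 and Col12a1 had r of 0.889 to 0.926 with each other, Col14a1 and Col6a6 0.650, and Col14a1 and Col6a1 -0.683.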

How the data were processed

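The authors deposited raw read counts per gene for 44 TruSeq stranded mRNA libraries. Their processing notes name HISAT2 2.2.1 and GRCm38, and the counter, its annotation and its strand setting are not given in the sources used here. The sources name both HiSeq and NovaSeq instruments, and no label assigns a library to either. The count table held 55486 genes, and 1 line that named no gene was left out.

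Counts of the libraries of a mouse and CD26 class were summed (25 sums of 13 mice). Genes were filtered with filterByExpr, scaled by TMM and tested in edgeR 4.0.16 (R 4.3.3) with the quasi-likelihood test in 1 fit over 6 groups, and Benjamini-Hochberg FDR under 0.05 over all 16601 genes was the threshold. En1 lineages were tested on single libraries in 12 groups (15584 genes). Values after ± in the text are standard errors. The scripts were tested on simulated data. Alternatives were DESeq2 1.42.0, limma 3.58.1 voom with mouse as a random effect, mouse as a fixed block, DESeq2 size factors, no filter, only the groups compared, libraries as units, leaving out mice 12 and 13, and leaving out each mouse. The CD26 classes of a mouse come from the same animal, and their deviations from group means correlated over 12 pairs (r 0.237 to 0.668, median 0.444). Depth was 5790599 to 15240328 counts per library, and limits from a count of 0 (3 counts) cover counting error only. Nothing in the labels says more of the replicates than that they are separate mice or pairs of numbers. The labels give 5 WB1P-Myc mice, which were all used, where the study's text gives another number.

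The members and lists were chosen with earlier results of these data known. Named were all 10 members, Dpp4, at most 3 called genes with the largest changes per list and comparison, and the 3 genes most correlated with each member, which for Col16a1 are not reported here. Log2 CPM for correlations used a prior count of 2. Promoter sequences came from RefSeq (GRCm38.p6).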

Additional observations from a re-analysis of the deposited data

Results flagged for a closer look

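In WB1P CD26- CAFs the Col10a1 level of mouse 6 was 634 CPM, where the next mouse had 167 CPM, a gap beyond Dixon's 95% limit for 5 samples. In WB1P-Myc CD26- CAFs mouse 12 stood apart in the same way, at 448 CPM against 59.5 CPM in the next mouse. Mouse 12 was also apart for Col16a1 in WB1P-Myc CD26+ CAFs, at 943 CPM against 732 CPM. These are 3 of 40 groups tested, where chance gives about 2. The limit was applied to CPM without a log, and Col10a1 had a wide spread on that scale. Gaps on the log scale were not tested. The CD26 difference of Col8a1 in WB1P CAFs differed from that in NFs by -2.65 ± 0.60 on the log2 scale (FDR 0.0233, edgeR), higher in CD26+ cells of 3 of 3 control mice and lower in those of 4 of 4 WB1P mice.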

How the results depend on the processing

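No result changed direction past a threshold. Of 117 single results of members, 37 were called, of which 22 kept their call in every alternative and 15 lost it in some, and 16 of the 80 not called gained one in some. The causes were not tested. Counts of members called that moved by over 1.5 times were these. For CD26+ against CD26- NFs (1 member) the count was 3 with DESeq2, with mouse as a fixed replicate block and with libraries as units, and 0 without a filter or with only the groups compared. For the CD26 difference in WB1P CAFs minus that in NFs (1 member) it was 3 with DESeq2, with the fixed replicate block and with libraries as units, and 2 with only the groups compared. The DESeq2 count includes Col10a1 beside Col8a1 and Col6a3. Col10a1 had 0 counts in NFs, so its CD26 difference there could not be estimated, and its call is not a result. For WB1P-Myc against WB1P CD26- CAFs (0) the count was 1 with DESeq2, with mouse as a random replicate block and with libraries as units. The CD26 difference in WB1P-Myc CAFs minus that in NFs (0) gave 1 with DESeq2 and with libraries as units. CD26+ against CD26- WB1P-Myc CAFs (4) gave 2 without the mice marked 8x8. Leaving out each mouse gave 6 to 7 members in WB1P CD26- CAFs against NFs, 4 to 5 in WB1P-Myc CD26-, 3 to 6 in WB1P CD26+ and 3 to 5 in WB1P-Myc CD26+ CAFs, 0 to 2 for CD26 in NFs (0 without mice 2, 3, 6, 7, 8, 10 or 11, and 2 without mice 4 or 5), 6 to 9 in WB1P and 2 to 5 in WB1P-Myc CAFs (2 without mouse 12), 0 to 2 for WB1P-Myc against WB1P CD26- CAFs (2 without mouse 12), 0 to 1 for the first CD26 interaction (0 without mice 1, 2, 3, 6 or 7) and 0 for the rest. The calls of single members that changed with mouse as a block or random effect are given beside the results. Depth limits Col10a1, which had 1 to 55 counts per mouse in CD26+ CAFs.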
